A study of Mus musculus with 21 samples.

Results

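Serotonergic neurons derived from mouse embryonic stem cells were set against somatic motor neurons derived in the same way. The comparison is the difference between 3 arrays of the serotonergic cultures and 3 arrays of the motor neuron cultures, and it covers all 18193 genes that a probe set named alone, of 18193 in the series, on 6 of its 21 arrays. Each gene is represented by the probe set whose values had the largest standard deviation (SD) over the 21 arrays. The serotonergic group came from a line in which the nestin enhancer (NesE), an element active in neural progenitors, drives Nkx2.2, and its neurons were collected at day 10 after sonic hedgehog (SHH) and retinoic acid (RA). The motor neuron group came from a line in which the same enhancer drives Olig2, collected at day 8 after SHH and RA. Both groups therefore share the enhancer, SHH, RA and the purification of post-mitotic neurons, and they differ in the driven factor, in the line and in the day, 3 differences that cannot be told apart here. How many clones stand behind each line is not stated in the labels. Other groups are given beside the comparison where it helps. Wild type neurons at day 8 after RA have labels that disagree on whether SHH was given. Neurons of the Nkx2.2 line were also collected at day 10 after SHH and FGF8. FGF8 is a growth factor of the midbrain-hindbrain boundary used in place of RA. SHH and FGF8 were likewise given to wild type neurons, collected at day 10, and to dopaminergic neurons of an Lmx1a line, collected at days 10 and 14.

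Both neuron classes arise in the ventral neural tube under SHH. Olig2 marks the progenitors of somatic motor neurons, and Nkx2.2 marks the more ventral progenitors that, in the hindbrain, give visceral motor neurons and then serotonergic neurons; Nkx2.2 and Olig2 repress each other where their domains meet. Serotonergic neurons make serotonin from tryptophan and take it up again with the transporter Slc6a4, whereas somatic motor neurons release acetylcholine onto muscle and are specified by Mnx1, Lhx3 and Isl1. RA gives neural cells a hindbrain and spinal cord position by inducing Hox genes, and it also induces the enzymes that break it down.

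The arrays were Affymetrix Mouse 430 2.0 arrays, hybridised with labelled RNA made from 2 ug of total RNA. The deposited values are log2 signals that had been centred on the median of each probe set over a larger set of arrays, so a value is a deviation in log2 units from that median, and it can be compared between arrays but not between genes. A difference of 1 log2 unit is a 2-fold difference. A gene was called higher or lower when limma's moderated test over all 21 arrays gave a Benjamini-Hochberg adjusted p under 0.05 and an absolute difference of 1 or more. The labels call the replicates biological without naming separate cultures, so the p-values measure the spread between these samples only. Since these are bulk samples, fewer cells of a type and less RNA per cell cannot be told apart.

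In the serotonergic cultures 1126 genes were called higher (6.19% of the genes tested) and 1262 lower (6.94%), and the median difference over all genes was -0.03. In 2330 called genes (12.8% of the genes tested) the 3 arrays of a group lay wholly above or below the 3 of the other. With no call required, 15.3% of the genes had all 3 serotonergic arrays higher and 35.2% had them lower, 50.5% in all, so a lack of overlap alone is common here. Differences of 4 log2 units or more were found in 133 of the higher and 69 of the lower genes. The third serotonergic array stood apart: its correlation with the other two was 0.641 and 0.664 against 0.89 between those, and the motor neuron arrays correlated at 0.768 to 0.872. Among genes whose other serotonergic arrays lay within 1 log2 unit of each other, 29 exceeded those arrays' mean by over 3 in the third array. Another 7 fell short of that mean by as much, so results that rest on the third array are given with and without it. A set of hybridisation control probe sets, bioC, split the motor neuron arrays, with -2.03 and -2.14 in the first pair and 0.396 in the third, close to the 0.311 to 0.498 of the serotonergic arrays. The part of this split in the results was not tested beyond the alternatives given at the end.

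The labelled identities were checked first. The serotonin transporter Slc6a4 had the largest rise of all genes: its deviations were 6.31, 6.67 and 6.33 in the serotonergic arrays and -3.09, -3.09 and -3.49 in the motor neuron arrays. The difference was 9.67 ± 1.22 log2 units (SE; adjusted p = 3.9e-05). Gata3, a zinc finger factor that serotonergic neurons need, read 3.37, 3.29 and 2.70 against -4.67, -4.55 and -4.01, a difference of 7.53 ± 0.65. Mnx1, the homeodomain factor of motor neurons, read -0.02, -0.04 and -0.04 against 8.16, 7.76 and 8.03. Lhx3, the LIM factor of the same cells, read -0.03, -0.04 and -0.05 against 7.96, 7.84 and 8.12. The differences for Mnx1 and Lhx3 were -8.02 ± 0.24 and -8.01 ± 0.11, and none of these 4 genes had overlapping groups.

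The driven factors were less far apart than these markers. Olig2 read 4.27, 5.24 and 3.80 in its own line and 0.45, 0.08 and -0.22 in the Nkx2.2 line, a difference of -4.33 ± 0.80 (adjusted p = 0.0011). Nkx2-2 read 1.60, 1.85 and 1.46 in its own line and 0.00, 0.20 and -0.29 in the Olig2 line, a difference of 1.67 ± 0.42 (adjusted p = 0.0099). Whether these probe sets read the driven copy or the gene of the cell is not known here. Olig1, the neighbour and close relative of Olig2, did not follow it: it read 3.46, 3.44 and 1.33 in the serotonergic arrays and 2.95, 2.64 and 1.31 in the motor neuron arrays, overlapping groups with a difference of 0.44 ± 0.45, while the wild type RA arrays averaged -0.03 ± 0.01 (SD, n = 3).

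**Figure D1:**
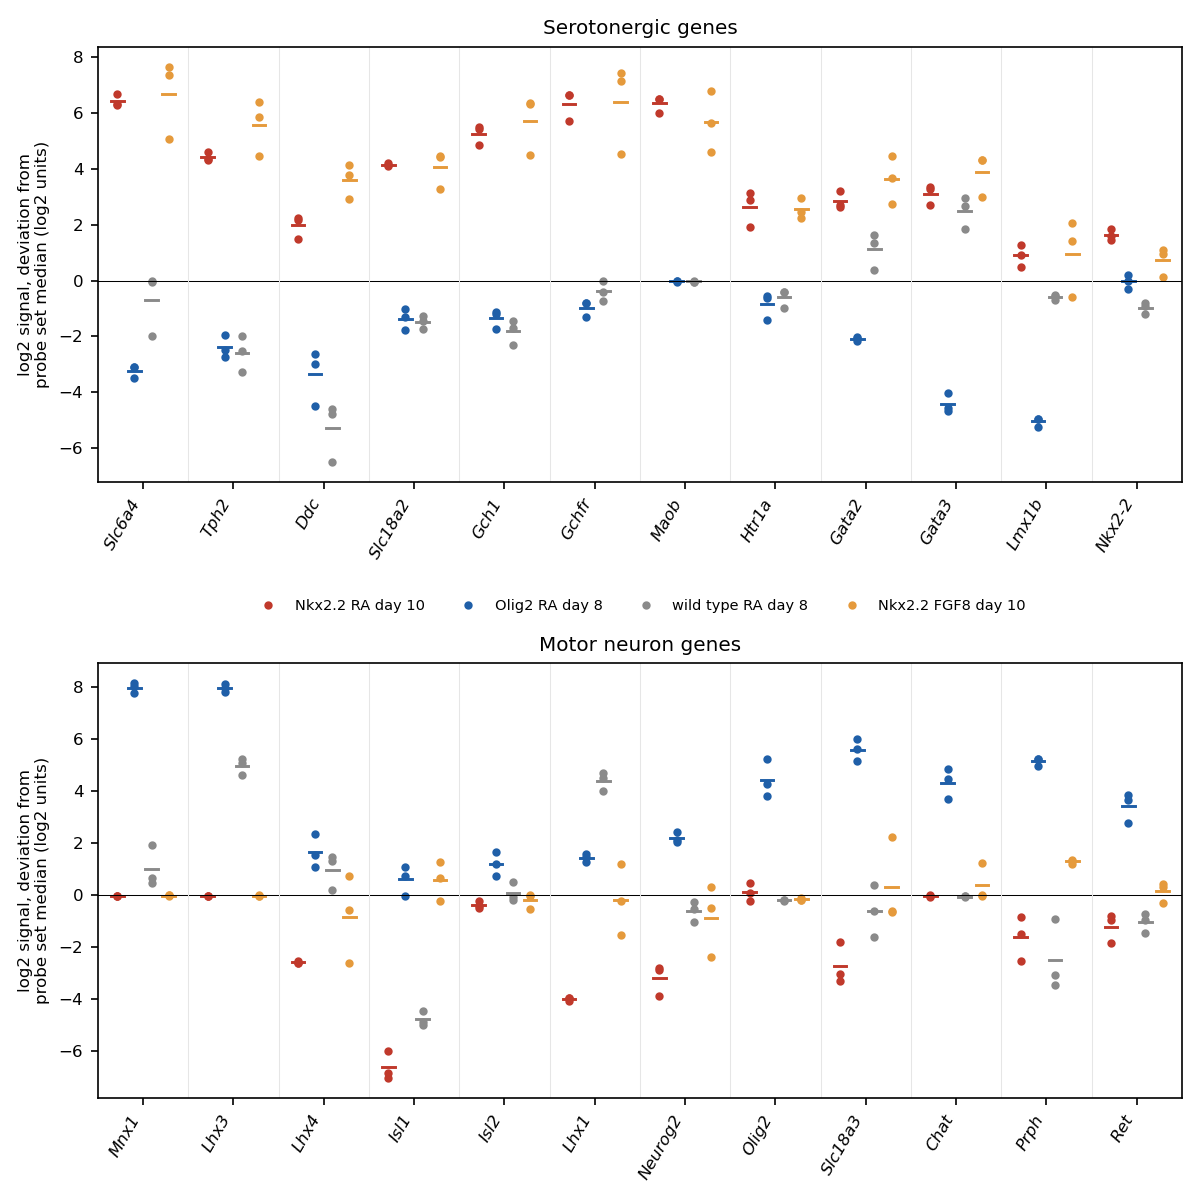
Deviation of the log2 signal from the probe set's median (log2 units) for 12 serotonergic genes (top) and 12 motor neuron genes (bottom). Each point is 1 array, each dash the mean of 3, and colours mark the 4 groups. The red (serotonergic) and blue (motor neuron) points do not overlap for any of these genes; for Isl1 the orange points of the Nkx2.2 line under FGF8 lie with the blue ones, and for Slc6a4 and Tph2 with the red ones.

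Of 16 measured genes for serotonin synthesis, transport, breakdown and feedback, 11 rose and 1 fell, with a median difference of 4.14 against -0.03 over all genes tested. Tph2, the neuronal tryptophan hydroxylase that sets the pace of synthesis, read 4.32, 4.62 and 4.36 against -2.74, -1.95 and -2.49, a difference of 6.83 ± 1.05 (adjusted p = 0.00024). Ddc, the decarboxylase that completes serotonin, rose by 5.34 ± 0.67, and Slc18a2, which loads it into vesicles, by 5.53 ± 0.33. Tph1, the hydroxylase of peripheral tissues, read between -0.01 and 0.02 on the 6 arrays and did not pass the test.

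Tryptophan hydroxylase needs the cofactor tetrahydrobiopterin, and the genes of that pathway split. Gch1, which makes its first step, rose by 6.61 ± 0.65, and Gchfr, the feedback regulator of Gch1, by 7.31 ± 0.79, with deviations of 6.66, 6.66 and 5.71 against -1.32, -0.79 and -0.80. Pts, the second enzyme, rose too, at 1.17, 1.22 and 0.73 against -0.68, -0.40 and -0.32. Spr, the last enzyme, went the other way, at -2.45, -0.94 and 0.24 in the serotonergic arrays against 2.11, 1.77 and 0.96, a difference of -2.66 ± 0.64 (adjusted p = 0.0075). Qdpr and Pcbd1, which recycle the cofactor, differed by 0.38 and -0.09 and were not called.

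Both monoamine oxidases, which break serotonin down, rose. Maob read 6.52, 6.52 and 6.03 against -0.03, 0.00 and -0.01, a difference of 6.37 ± 0.34, and Maoa rose by 3.50 ± 0.68. The receptors by which serotonergic neurons sense their own output rose for Htr1a, by 3.51 ± 0.31, and Htr1b, by 4.77 ± 0.45, whereas Htr1d differed by -0.03. In the Nkx2.2 line under FGF8 these genes were high too, with means of 6.70 for Slc6a4, 5.58 for Tph2, 5.73 for Gch1 and 5.69 for Maob. In the wild type RA arrays Tph2 averaged -2.58 and Gch1 -1.82, near the motor neuron arrays. The count was 11 higher and 1 lower also without the third serotonergic array. With the mean of all probe sets of a gene 10 rose and the median was 2.52; second probe sets differed by -0.02 for Ddc, -0.03 for Htr1b and -0.03 for Pts.

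Of 12 measured serotonergic transcription factors, 7 rose and 1 fell. Gata2, the partner of Gata3, read 2.70, 3.21 and 2.63 against -2.05, -2.03 and -2.17, a difference of 4.93 ± 0.54. Lmx1b, a LIM factor needed for the whole serotonergic programme, read 0.50, 0.93 and 1.27 against -4.95, -4.94 and -5.24, a difference of 5.95 ± 0.49; its second probe set differed by only 0.01. The long non-coding RNA C130021I20Rik, the annotated neighbour of Lmx1b, read 0.39, 0.69 and 1.11 against -6.83, -6.53 and -6.53, and its difference of 7.36 ± 0.37 was among the 15 largest rises. For Gata3 the wild type RA arrays, at 2.97, 2.68 and 1.84, lay near the serotonergic arrays, so it is the motor neuron arrays that stood apart. For Lmx1b the wild type RA arrays averaged -0.58, between the groups but nearer the serotonergic arrays. Over the 12 factors the mean deviation was 0.31, 0.76 and 0.76 in the serotonergic arrays. It was -0.25, -0.04 and -0.19 in the wild type RA arrays and -1.73, -1.79 and -1.89 in the motor neuron arrays.

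Foxa1 and Foxa2 are factors of the floor plate, the ventral midline strip that secretes SHH, and also act in serotonergic and dopaminergic progenitors. Foxa1 read 0.89, 0.99 and 2.08 against -2.78, -2.88 and -2.80, a difference of 4.14 ± 0.45, and Foxa2 rose by 3.66 ± 0.51. From other lists, Shh itself rose by 4.37 ± 0.75 and Corin, a protease also made by the floor plate, by 7.14 ± 0.66, with deviations of 2.19, 2.14 and 4.49 against -4.00, -4.20 and -4.41. Shh and Corin were set beside the Foxa genes after the values were seen, and no list of floor plate genes was made. In all 4 genes the third serotonergic array was the highest, and all 4 kept their call without it, as did Nkx6-1, a ventral progenitor factor that rose by 2.95 ± 0.42. En2 was the factor that fell, by 1.17, and its call held only without the first motor neuron array and was lost without each other array (adjusted p up to 0.138). The gene Fev, the terminal selector of serotonergic neurons, was not analysed here.

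Of 14 measured somatic motor neuron factors, 9 fell and none rose at the threshold, with a median of -3.10; without the third serotonergic array 9 fell and 1 rose. Beside Mnx1 and Lhx3, Isl1 showed the largest gap. Isl1, the LIM factor that pairs with Lhx3 to specify motor neurons, read -6.84, -7.04 and -6.01 in the serotonergic arrays against 1.09, 0.75 and -0.03, a difference of -7.24 ± 0.41 (adjusted p = 1e-08). The wild type RA arrays were low too, at -4.90, -4.44 and -5.01, whereas the Nkx2.2 line under FGF8 read -0.23, 1.26 and 0.67, as high as the motor neuron arrays. Within the Nkx2.2 line Isl1 was thus low under RA and high under FGF8.

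Lhx4, the close relative of Lhx3, read -2.61, -2.54 and -2.59 against 2.36, 1.53 and 1.09, a difference of -4.24 ± 0.69. Neurog2, the proneural factor of motor neuron progenitors, fell by 5.37 ± 0.62. Lhx1, a marker of motor neurons that project to dorsal limb muscle and of several interneuron classes, read -3.94, -3.96 and -4.06 against 1.26, 1.45 and 1.57; the wild type RA arrays were higher than both groups, with a mean of 4.40. The wild type RA arrays read 5.23, 5.07 and 4.61 for Lhx3 but 0.48, 0.66 and 1.92 for Mnx1. Isl2 fell by 1.58 ± 0.43 and Onecut1 by 1.96 ± 0.55, and these calls were less stable. Isl2 lost its call without the first motor neuron array (adjusted p = 0.0702), and Onecut1 without the first or second array of either group (adjusted p up to 0.109). Foxp1, Lmo4, Nkx6-2 and Onecut2 differed by 0.90, -0.50, 0.58 and -0.95 and were not called.

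Of 13 measured cholinergic and motor neuron phenotype genes, 7 fell and 1 rose, with a median of -2.09. Slc18a3, the vesicular acetylcholine transporter, read -3.04, -3.30 and -1.82 against 5.99, 5.61 and 5.16, a difference of -8.31 ± 0.70 (adjusted p = 9.3e-07). Chat, the enzyme that makes acetylcholine and whose locus holds Slc18a3, read -0.01, -0.06 and -0.03 against 4.46, 3.71 and 4.84, a difference of -4.37 ± 0.28. Ache, which breaks acetylcholine down, fell by 2.85 ± 0.51. Slc5a7, the choline transporter, differed by -0.48 ± 0.21 and was not called: it read 0.62, 0.77 and 0.01 in the motor neuron arrays.

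Prph, an intermediate filament of neurons with peripheral axons, read -1.49, -2.55 and -0.84 against 4.98, 5.25 and 5.26, a difference of -6.79 ± 0.65. Of its 4 probe sets only 1 differed by 1 or more, and another differed by -0.021. Ret, the receptor for glial cell line-derived factors, fell by 4.64 ± 0.37 and Nrg1, a growth factor of the nerve-muscle junction, by 2.88 ± 0.34. The Ret coreceptor Gfra1 fell by 2.09 ± 0.67, a call that held only without the third motor neuron array (adjusted p up to 0.138 without the others). Chodl went against its list: this marker of fast motor neurons in the adult read 3.44, 4.11 and 3.22 in the serotonergic arrays against 0.54, -0.05 and -0.12, a rise of 3.47 ± 0.78.

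Of 13 genes for visceral motor and noradrenergic neurons, the other classes that Nkx2.2 progenitors and their neighbours can make, 2 fell and none rose. Tbx3 read -1.42, -1.11 and -1.65 against 3.62, 3.41 and 2.61, and Hand2, a factor of sympathetic neurons, -0.04, -0.05 and -0.16 against 3.52, 2.94 and 3.91. Phox2a, the factor shared by visceral motor and noradrenergic neurons, read -1.12, -1.21 and -0.44 against -1.23, -1.10 and -1.10 and did not pass the test, nor did Tbx20, with 1.78 ± 0.81. Of 14 ventral interneuron factors 2 rose: Shox2, a factor of excitatory ventral interneurons, by 6.73 ± 0.65, and Sim1, the factor of the most ventral interneuron class, by 4.29 ± 0.72. Sim1 read 3.48, 3.82 and 3.20 against -0.48, -0.48 and -1.42. Shox2 was also high in the wild type RA arrays, at 3.19, 2.84 and 2.75. Of 14 dorsal interneuron factors 1 fell, Pou4f1, by 2.51 ± 0.53.

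Although both groups received RA, the genes of RA metabolism and response were far apart. Of 15 measured, 9 fell in the serotonergic cultures and none rose, with a median of -3.61, and the count was 9 without each of the 6 arrays in turn. Cyp26a1 and Cyp26b1, the enzymes that degrade RA, were among the 5 largest falls of all genes. Cyp26b1 read -0.25, 0.05 and 0.01 against 8.33, 8.30 and 8.48, a difference of -8.44 ± 0.43 and the largest fall of all genes. Cyp26a1 read 0.13, -0.04 and -0.01 against 8.20, 8.58 and 7.18, a difference of -7.96 ± 0.25. Neither was high in the wild type RA arrays, which read -0.03, -0.03 and -0.03 for Cyp26a1 and 0.00, 0.00 and 0.41 for Cyp26b1.

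Rarb, the RA receptor gene that RA itself induces, read 0.53, -0.21 and -3.14 against 5.84, 5.63 and 5.82, a difference of -6.70 ± 0.74 (adjusted p = 1.1e-05). Here the wild type RA arrays, at 3.72, 2.73 and 3.56, lay between the groups. RA receptors bind paired copies of a short site, and GTTCA is a form of that site without its first base. The gap of 6 bases searched here therefore includes the first base of a copy. Other forms of the site were not searched. Promoter windows from RefSeq (GRCm38.p6), which run from 250 bases before to 50 after each gene's start, were searched for GTTCA, any 6 bases and GTTCA again, and, for the other strand, TGAAC, any 6 bases and TGAAC again. The letters occurred in 25 of 32851 windows (0.0761%), and in the windows of 9 of 14452 genes tested, of 1 of 880 called higher and of 3 of 1005 called lower. The windows of Cyp26a1 and Rarb, both among the 15 largest falls, hold them, and their 250 bases before the start are shown for that reason, 5′ to 3′ on the strand of the gene, with the match in capitals. In Cyp26a1 (chr19:37697558-37697807, plus strand) the match lies 32 to 17 bases before the start, and in Rarb (chr14:16575477-16575726, minus strand) 52 to 37 bases before it.
Cyp26a1: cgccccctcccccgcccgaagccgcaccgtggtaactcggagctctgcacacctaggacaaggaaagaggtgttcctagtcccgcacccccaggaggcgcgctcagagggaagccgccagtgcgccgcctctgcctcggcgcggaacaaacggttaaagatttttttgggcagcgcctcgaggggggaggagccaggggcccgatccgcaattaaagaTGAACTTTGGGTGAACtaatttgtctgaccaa
Rarb: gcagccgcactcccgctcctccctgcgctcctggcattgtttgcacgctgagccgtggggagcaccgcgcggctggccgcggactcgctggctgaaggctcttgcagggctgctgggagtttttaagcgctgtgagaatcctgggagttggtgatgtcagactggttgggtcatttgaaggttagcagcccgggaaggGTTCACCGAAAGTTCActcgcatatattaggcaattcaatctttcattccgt

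The third gene called lower with a match was Tnfsf13b, which fell by 1.48 ± 0.30, and the gene called higher was Dmd, with 1.92 ± 0.60; both were found by the search and not by the rule for named genes. A match is a description of the letters, and binding was not measured in these data. No match in a window, as for Cyp26b1, says only that the letters are not there.

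The other RA genes that fell covered its transport, synthesis and reduction. Crabp2, which carries RA to its receptors, read -6.44, -6.07 and -4.48 against 2.15, 2.26 and 1.78, a difference of -7.72 ± 0.85, and Crabp1, which holds it in the cytoplasm, fell by 3.61 ± 0.45. Dhrs3, which turns retinal back into retinol, read -0.19, -0.54 and -0.42 against 4.98, 4.90 and 5.04. Aldh1a2, the enzyme that makes RA, fell by 4.77 ± 0.63, Stra6, the receptor for retinol carried in blood, by 4.12 ± 0.56, and Rara by 1.83 ± 0.43. Dhrs3 averaged 0.05 in the wild type RA arrays and Aldh1a2 averaged 2.84. Rarg and Nrip1 differed by -0.55 and -0.58 and were not called.

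**Figure D2:**
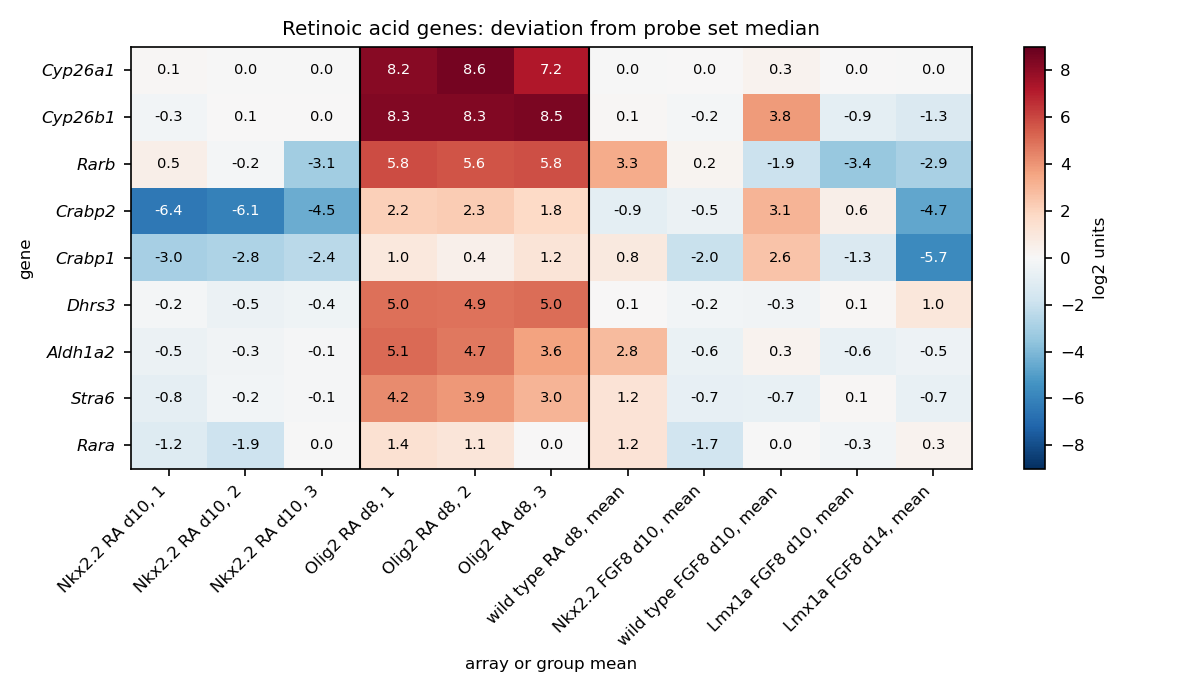
Deviation of the log2 signal from the probe set's median (log2 units, red above and blue below) for the 9 called RA genes, in each of the 6 arrays compared and as means of 3 arrays in the 5 other groups. Cyp26a1 and Dhrs3 are at 4.90 or above in the motor neuron arrays and at most 1.04 elsewhere, whereas Rarb and Aldh1a2 are also above 2 in the wild type RA mean.

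Hox genes encode position along the body axis, with the low-numbered groups active from the hindbrain down and the high-numbered ones only in the spinal cord. Of 26 measured, 17 fell and none rose: 4 of 7 in groups 1 to 3, 4 of 6 in groups 4 and 5, and 9 of 13 in groups 6 to 10. In groups 4 and 5 each of the 6 genes had at least 1 serotonergic array at 1 or more. Hoxb4 read 4.92, 4.09 and 4.06 against 5.01, 5.33 and 5.44, a difference of -0.91 that stayed below the threshold of 1. Hoxb5 read 6.06, 4.97 and 2.54 against 9.02, 9.27 and 9.05, a difference of -4.59 ± 0.68.

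Most genes of groups 6 to 10 were near their median in the serotonergic arrays: 10 of 13, 7 of them called lower, had all 3 arrays below 1. Hoxb9 read 0.97, -0.12 and -0.13 against 8.07, 7.71 and 8.51, a difference of -7.86 ± 0.56. Hoxc8 read 0.00, -0.29 and -0.15 against 6.16, 6.71 and 7.76, a difference of -7.02 ± 0.77. The exceptions were Hoxb6, at 2.75, 2.12 and 1.06 against 5.23, 5.43 and 5.11, Hoxa9, at 1.52, 2.36 and 0.85 against 3.01, 2.96 and 3.31 and not called, and Hoxc6, at 1.22 in the first serotonergic array only. Hoxd3 was the gene of groups 1 to 3 with the largest fall, from 4.97, 5.22 and 5.45 in the motor neuron arrays to 0.00, -0.08 and -0.09, and Hoxd9 fell by 3.31 ± 0.25.

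The third serotonergic array was the lowest of the 3 for Hoxa5, Hoxb5 and Hoxc5, at 0.00, 2.54 and 0.22 against 2.42 to 6.06 in the other two, and the highest for Hoxa4, at 2.27 against 0.23 and -0.03. Without it the counts were the same, 4, 4 and 9. The wild type RA arrays were high for Hoxb9 as well, at 7.12, 7.38 and 8.32, and averaged 5.27 for Hoxc8 but 0.31 for Hoxd9. In groups 1 to 3 only 2 calls were left without the first or the second motor neuron array; Hoxa2 kept its call only without the third serotonergic array (adjusted p up to 0.0764 without the others). Of 8 Hox cofactors 3 fell, and 1 without the first or the third motor neuron array. Meis3, which did not lose its call, fell by 2.16 ± 0.34.

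**Figure D3:**
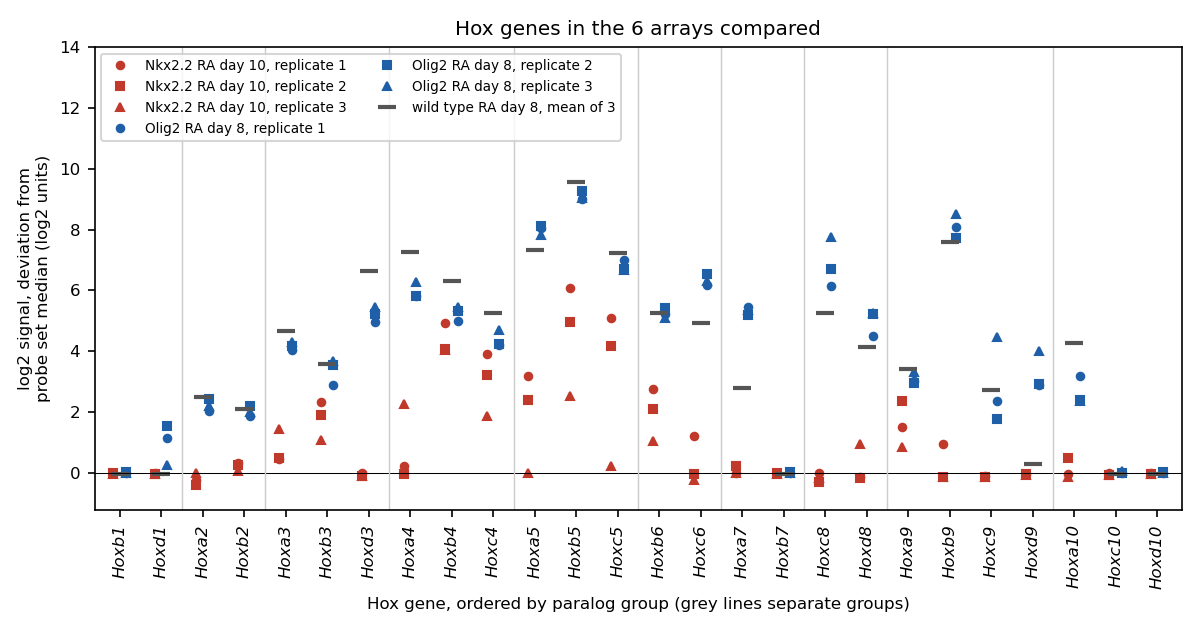
Deviation of the log2 signal from the probe set's median (log2 units) for 26 Hox genes in order of paralog group, with 1 point per array (red serotonergic, blue motor neuron; symbols mark replicates) and a dash for the mean of the 3 wild type RA arrays. The red points are at most 0.97 for Hoxd3, Hoxc8 and Hoxb9, where the blue points are at 4.97 or above, and the groups approach each other at Hoxb4 and Hoxc4.

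Genes of the midbrain, the isthmus and the anterior hindbrain gave 5 falls among 13 measured and no rise. Gbx2, the factor that sets the anterior border of the hindbrain, read -1.36, -1.38 and -1.38 against 4.81, 4.97 and 5.05, a difference of -6.32 ± 0.36; the wild type RA arrays averaged 5.71. The other 4 were Iroquois factors, Irx1, Irx2, Irx3 and Irx5, with differences from -1.21 for Irx2 to -2.73 for Irx5. Otx2, the midbrain factor, differed by 0.39.

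In the hedgehog list of 12, 3 genes fell and 2 rose, and 1 rose without the third serotonergic array or the first or second motor neuron array. Gas1, an SHH coreceptor, fell by 4.65 ± 0.79 and Gli2, the main activating effector, by 4.61 ± 0.97, beside the rise of Shh. Ptch1, a target and receptor of SHH, fell by 1.36 with a call that was lost without the first or second array of either group (adjusted p up to 0.164), and Gli1 read between -0.05 and 0.23 on all 6 arrays. Of 12 genes that respond to FGF signals 6 fell, and 4 to 7 when arrays were left out in turn. Spry4, a feedback inhibitor, read -0.49, -0.50 and -0.47 against 3.83, 3.96 and 3.74, Spry1 fell by 4.17 ± 0.58 and the ETS factor Etv4 by 3.20 ± 0.33. For Spry4 the wild type RA arrays averaged -0.25, near the serotonergic arrays.

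Of 19 in the Notch and neurogenesis list 8 fell and 1 rose, and 4 fell without the first or second array of either group; Hey1, the gene that rose (by 1.30), lost its call without the third serotonergic, the second motor neuron or the third motor neuron array (adjusted p up to 0.0942). Neurod1, a differentiation factor, read -3.41, -3.10 and -4.73 against -0.25, 0.44 and -0.02, and Nhlh2 and Nhlh1, markers of newly born neurons, fell by 2.57 ± 0.27 and 2.39 ± 0.44. Of 15 genes that change as neurons mature, 5 fell and 2 rose. Without the first serotonergic or the second motor neuron array 3 fell and none rose, without the second serotonergic array 1 rose, and without the first motor neuron array 3 fell. Hmga2, a chromatin protein of immature cells, read -2.83, -2.59 and -2.52 against 4.17, 3.94 and 3.19, and Mycn fell by 2.64 ± 0.24. Lin28a fell by 2.66, a call lost without the first or second array of either group (adjusted p up to 0.133). The cell cycle list gave 1 call among 27, Ccne1, which fell by 3.65 ± 0.47; the mitotic genes Mki67 and Top2a differed by -0.20 and -0.37. Without the third serotonergic array 2 cell cycle genes fell.

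Of 29 ionotropic receptor genes 10 rose and 8 fell, and 5 fell without the first or the second motor neuron array. All 5 called of the 7 nicotinic acetylcholine receptor genes in the list fell, and all 5 called of the 7 GABA-A receptor genes rose, as did 3 of 4 AMPA receptor genes. Of 3 kainate receptor genes 1 rose and 1 fell, of 3 NMDA receptor genes 1 rose and of 3 glycine receptor genes 1 fell. This split by family was drawn after the values were seen. Over the measured alpha and beta nicotinic subunits, in the list or not, 5 of 12 fell and none rose. Over the measured GABA-A subunits other than theta and rho, 6 of 12 rose and none fell. Chrna3, a nicotinic subunit of autonomic and early neurons, read -3.37, -3.39 and -3.08 against 1.69, 1.61 and 1.27, a difference of -4.80 ± 0.38, and Chrnb4, from the same gene cluster, fell by 4.18 ± 0.51. Chrna4, Chrna5 and Chrnb2 fell by 1.21 to 1.99, and these calls were less stable. Chrna4 lost its call without the first motor neuron array (adjusted p = 0.0527), Chrna5 without that array, the second motor neuron array or the first serotonergic array (up to 0.0749), and Chrnb2 without any array but the first motor neuron array (up to 0.0897).

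Gabrb1, a GABA-A subunit, read 5.48, 5.57 and 3.73 against -1.69, -2.01 and -1.68, a difference of 6.72 ± 0.58. Gabra2 rose by 3.89 ± 0.60, and the AMPA receptor genes Gria3 and Gria4 by 4.09 ± 0.33 and 3.29 ± 0.49. The third serotonergic array was the lowest of its group for Gabrb1, Gabra2 and Gria4, and the list gave 12 rises and 6 falls without it. Leaving out each array in turn gave 7 to 12 rises. Gabra3 lost its call without the first or second serotonergic or the second motor neuron array (adjusted p up to 0.0663). Gabra5 lost it without the first or second array of either group (up to 0.181), and Gria1 without the second serotonergic array (0.056). P2rx3, an ATP-gated channel of sensory neurons, fell by 3.10 ± 0.31.

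**Figure D4:**
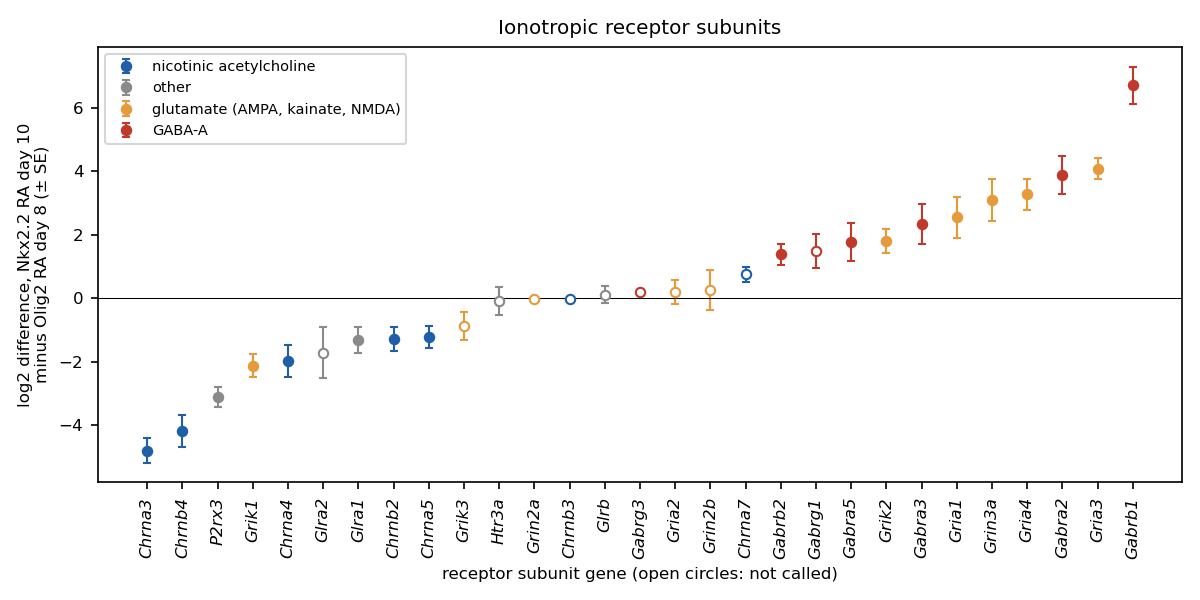
Log2 difference between the serotonergic and the motor neuron arrays with its SE for 29 ionotropic receptor genes in order of size, coloured by transmitter; open circles were not called. Nicotinic genes make up most of the left end, from -4.80 for Chrna3, and GABA-A and glutamate receptor genes the right end, up to 6.72 for Gabrb1.

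Of 32 receptors of the G protein-coupled kind 4 rose and none fell. Ptger3, a prostaglandin receptor of serotonergic neurons, read 6.36, 6.43 and 4.85 against 1.05, 1.74 and 2.67, a difference of 4.06 ± 0.69, and the adrenergic receptor Adra1b rose by 2.74 ± 0.62. Grm5 rose by 3.16 ± 0.58, with 0.00 in the third serotonergic array against 1.99 and 2.14. Among 9 genes for GABA, glycine and glutamate transmission the call was Slc17a6, the vesicular glutamate transporter of brainstem and spinal neurons. It read -1.31, -1.19 and -2.18 in the serotonergic arrays against -7.56, -7.52 and -7.55, a difference of 5.99 ± 0.82, while the wild type RA arrays read 0.30, 0.23 and 1.13. Both compared groups lay below the wild type for this gene, the motor neurons by far the more.

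Of 22 neuropeptide and granule genes 7 rose and 3 fell. Tac1, the precursor of substance P, which some serotonergic neurons release with serotonin, read 5.85, 4.64 and 2.73 against -0.50, -0.35 and -0.22, a rise of 4.77 ± 0.66, and Penk, the enkephalin precursor, rose by 4.56 ± 0.65. The wild type RA arrays were at least as high for Tac1, at 6.89, 6.76 and 8.34. Chgb, a granule protein, rose by 3.76 ± 0.21, but its relative Chga fell by 1.71 ± 0.25. Sst, the somatostatin precursor, read -4.62, -4.81 and -4.85 against -0.50, -1.13 and -0.52.

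Of 26 potassium channel genes 9 rose and 2 fell, and of 22 sodium and calcium channel genes 5 rose and 2 fell. Leaving out each array in turn gave 6 to 8 rises among the potassium channel genes. Without the second array of either group 1 potassium channel gene fell. With the mean of all probe sets 5 potassium channel genes rose, and none of the sodium and calcium channel genes fell. Kcnk2, a background potassium channel, rose by 3.98 ± 0.43, Kcnip4, an auxiliary subunit of fast potassium channels, by 3.74 ± 0.52 and Kcnc2 by 3.33 ± 0.44. The auxiliary calcium channel subunits went opposite ways: Cacna2d1 read 0.65, 1.70 and 0.25 against -2.84, -3.67 and -3.78, while Cacna2d2 read -2.15, -2.60 and -1.73 against 0.00, -0.69 and 0.59. None of the 7 sodium channel genes in the list was called.

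Of 27 genes of synaptic vesicles 6 rose and 4 fell, and 3 rose without the first serotonergic or the second motor neuron array. Sv2b, a vesicle protein, rose by 4.17 ± 0.50 and Cplx1, a regulator of release, fell by 2.81 ± 0.55, whereas Snap25, Syp and Syn1, found in nearly all neurons, differed by -0.34, -0.26 and 0.06. Of 16 cytoskeletal genes 3 fell, all of them for neuronal intermediate filaments. Nefh, of the same family, was measured and not called. Nefm read -3.19, -3.42 and -3.40 against 0.35, 0.34 and 0.31, a difference of -3.67 ± 0.26, and Nefl and Ina fell by 2.59 ± 0.25 and 1.73 ± 0.23. The general neuronal genes Stmn2, Mapt and Gap43 differed by -0.18, -0.21 and -0.31.

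Axon guidance genes fell more often than they rose, 14 against 5 of 39. Leaving out each array in turn gave 10 to 13 falls and 4 to 7 rises. Epha4, the receptor that steers limb motor axons, read 0.00, -0.29 and -0.74 against 4.33, 3.99 and 3.85, a difference of -4.40 ± 0.36, and Sema3c and Efnb2 fell by 3.90 ± 0.56 and 3.88 ± 0.49. Slit2 and Slit3, the repellents that motor neurons also make, fell by 2.12 ± 0.38 and 2.17 ± 0.50, whereas Slit1, of the same family, rose by 2.01 ± 0.42. Efnb3, a midline ephrin, rose by 4.65 ± 0.35. Of 14 receptors for neurotrophic factors 3 fell, among them Met by 4.23 ± 0.58 and Ngfr by 3.95 ± 0.43, and 1 rose, which was lost without the third serotonergic or the first or second motor neuron array.

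Adhesion genes went the other way, with 17 rises and 2 falls among 32 and a median of 1.35; leaving out each array in turn gave 13 to 19 rises. With the mean of all probe sets 13 rose and the median was 0.745. The mean deviation over the list was 0.74, 0.93 and 0.15 in the serotonergic arrays and -0.7, -0.91 and -0.45 in the motor neuron arrays. The wild type RA arrays, at 0.65, 0.48 and 0.7, lay nearer the serotonergic ones. Chl1, an adhesion molecule of the immunoglobulin family, read 1.06, 1.16 and 0.00 against -3.53, -3.89 and -3.50, a difference of 4.38 ± 0.49, and Ncam2 and Ntm rose by 3.40 ± 0.41 and 3.37 ± 0.31. Cntn2, an adhesion molecule of newly growing axons, fell by 3.74 ± 0.53. Of 19 cadherins 5 rose and 2 fell, led by Pcdh17, with a rise of 3.46 ± 0.47; 1 fell without the third serotonergic array or any of the motor neuron arrays. Of 31 Wnt and BMP genes 2 rose and 5 fell. Of these 1 rose without any array but the first serotonergic one, and 3 fell without the first motor neuron array. The largest fall was that of Bmp7, which read -4.42, -4.31 and -1.85 against 0.83, 0.88 and 0.30.

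Of 20 imprinted genes, which are read from the copy of 1 parent, 5 rose and 1 fell. The fall, of Grb10, was by 3.33, and its call was lost without the first or the third serotonergic or the first or second motor neuron array (adjusted p up to 0.0961). Plagl1, a zinc finger factor of an imprinted growth network, read -8.03, -6.95 and -6.69 in the Olig2 line against -0.29, -0.27 and 0.00, a difference of 7.04 ± 0.94; the other groups averaged between -1.55 and 0.52. The lowest of these means, that of the Nkx2.2 line under FGF8, rests on 1 array at -4.97 beside 0.07 and 0.25, and another of its 3 probe sets differed by -0.04. Nnat, a membrane protein of neurons, read -6.07, -5.02 and -4.76 against -0.60, -0.54 and -0.59, a difference of 4.71 ± 0.31, and the other 5 groups averaged from -0.25 to 0.32. Usp29 and Peg3, neighbours in an imprinted domain, rose by 2.07 ± 0.38 and 1.23 ± 0.25.

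The remaining largest rises were not members of the lists. Vtn, vitronectin, read 2.76, 2.43 and 4.12 against -5.65, -4.72 and -5.54, a difference of 8.40 ± 0.69, and Ecrg4, a secreted peptide precursor, rose by 7.82 ± 1.15. Cavin2, a coat protein of caveolae, read 6.43, 6.48 and 7.51 against -0.58, -0.65 and -0.58, a difference of 7.41 ± 0.25, and only between -0.66 and 0.02 in the Nkx2.2 line under FGF8. Anxa1, a phospholipid-binding protein, rose by 7.40 ± 1.07, and Calb2, the calcium buffer calretinin, by 7.19 ± 0.70, with -5.16, -5.08 and -5.07 in the motor neurons. Srgn, Irs4 and Cmtm8 rose by 6.90, 6.84 and 6.81. Among the largest falls, Prdm8 and Sp8, both zinc finger transcription factors, fell by 7.32 ± 0.48 and 6.44 ± 0.70.

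Markers of other cells were examined as whole lists. Of 14 genes of motile cilia 9 rose and none fell, with a median of 1.68; their mean deviation was 1.21, 1.12 and 2.26 in the serotonergic arrays against -0.20, -0.07 and -0.38. Foxj1, the master factor of motile cilia, read 1.78, 2.17 and 4.25 against -0.46, -0.28 and -1.01, and Dnah9, a dynein arm, rose by 4.57 ± 0.49. Without the third serotonergic array 5 rose, and the median was 0.97; 5 also rose without the third motor neuron array. With the mean of all probe sets 6 rose, with a median of 1.05. Of 10 astroglial genes 2 rose: the water channel Aqp4, at 3.46, 4.77 and 5.12 against -0.18, -0.18 and -0.21, and Aldh1l1, by 4.85 ± 0.65 but with -0.01 from its other probe set. The defining astroglial genes Gfap, S100b and Slc1a2 differed by -0.03, 0.00 and -0.72.

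Of 12 mesenchymal genes 3 rose; 1 rose without the first or the third serotonergic array and none without the first or second motor neuron array. Their mean deviation was 0.58, 0.03 and 1.24 against -0.55, -0.62 and 0.06, and the collagen genes Col1a1 and Col3a1 differed by -0.57 and -0.35. Of 10 endodermal and epithelial genes 1 rose, Sox17, which read 3.50, 0.14 and 4.33 against -0.01, 0.01 and 0.00, and the mean over the list was 0.99, -0.32 and 1.63 in the serotonergic arrays against -0.41, -0.39 and -0.47. Sox17 lost its call without the first or the third serotonergic array (adjusted p up to 0.0621), and without the second 2 genes of the list rose. None of 11 endothelial and blood genes was called, and of 10 pluripotency genes the call was Klf4 (2.24 ± 0.75), lost without the first or the third serotonergic or the first or second motor neuron array (adjusted p up to 0.193). The part of such cells in the results was not tested.

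**Figure D5:**
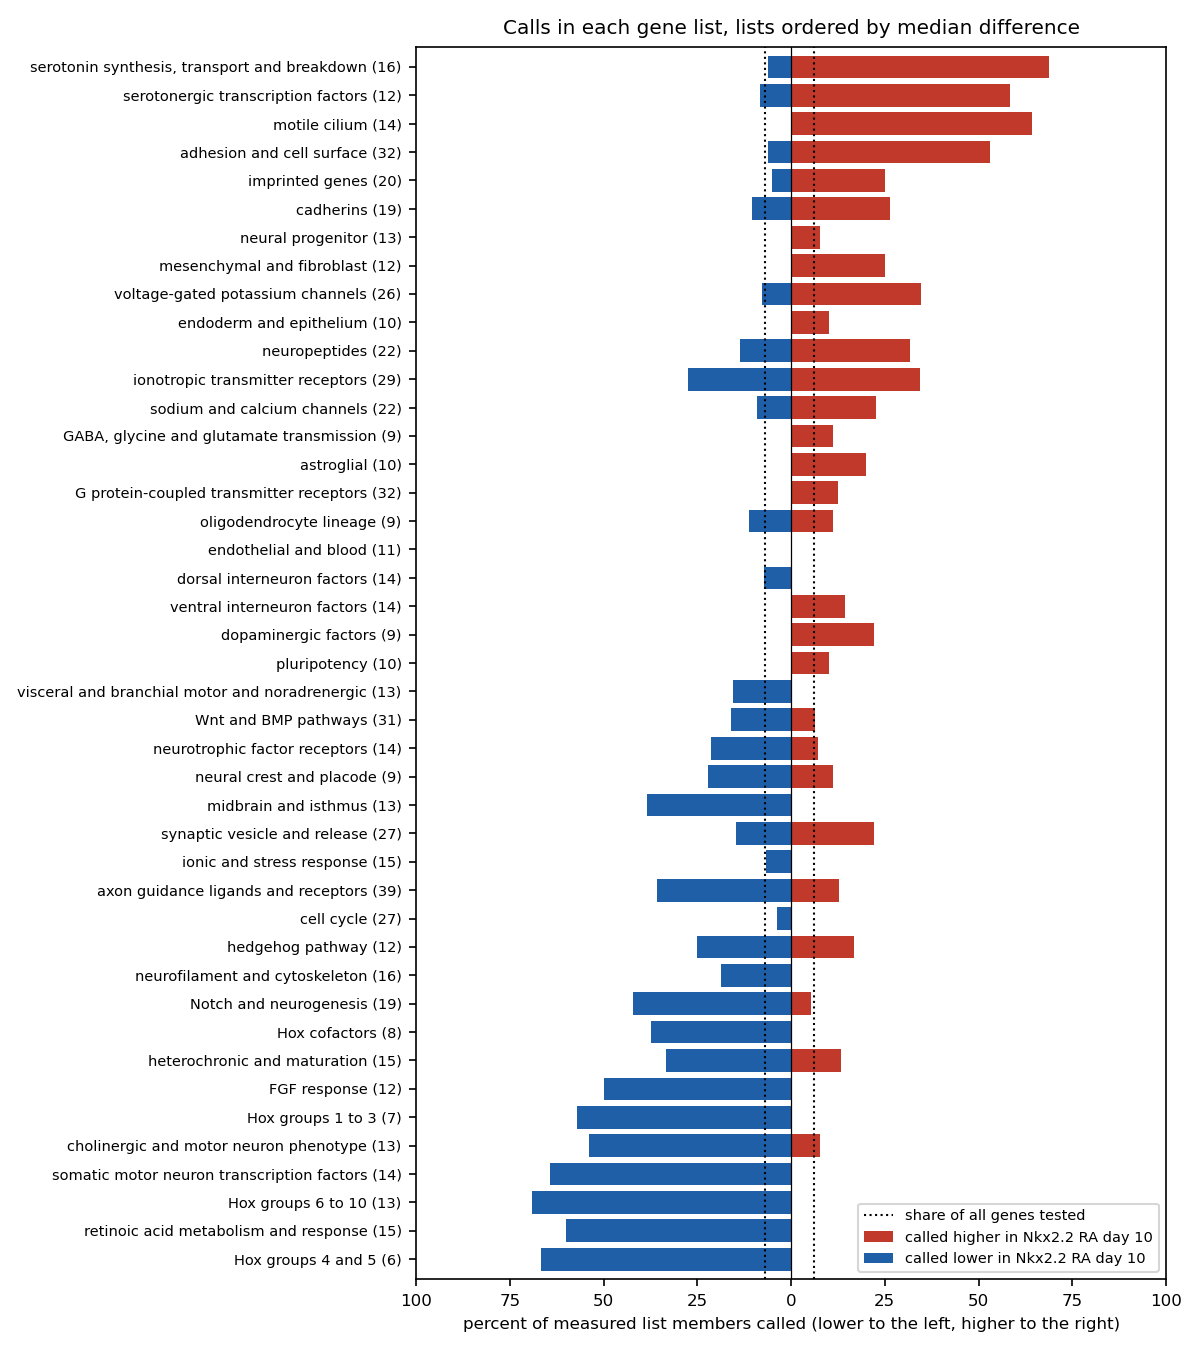
Percent of the measured members of each of 43 gene lists called higher (red, to the right) or lower (blue, to the left) in the serotonergic arrays, lists ordered by median difference with the number measured in brackets; dotted lines mark the shares over all genes tested, 6.19% and 6.94%. Serotonin genes, with 11 of 16 called higher, are at the top, and the Hox, RA and motor neuron factor lists at the bottom.

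The wild type RA arrays were set beside both groups. Of the 1126 higher genes, 745 (66.2%) had all 3 wild type RA arrays nearer the motor neuron mean and 158 (14%) nearer the serotonergic mean, and in 223 (19.8%) they lay on both sides. Of the 1262 lower genes, 592 (46.9%) had them nearer the motor neuron mean and 333 (26.4%) nearer the serotonergic mean, and in 337 (26.7%) they lay on both sides. Cyp26a1, Slc18a3, Chat and Olig2 are among those where the wild type lay with the serotonergic arrays, and Hoxb9, Gbx2 and Hoxd3 among those where it lay with the motor neurons. The wild type shares its day with the motor neuron group and its line with neither, so these positions do not separate line from day.

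A pair of comparisons between other groups shared calls with it; their differences use none of the 6 arrays, but their tests share the fit's variance estimate over all 21. In the Nkx2.2 line minus wild type under FGF8, both at day 10, 514 genes were called higher (2.83% of the genes tested) and 311 lower (1.71%). Of the genes higher in the serotonergic RA arrays, 265 (23.5%) were also higher there, which is 51.6% of the FGF8 calls, and 4 were lower. Of the genes lower, 150 (11.9%) were also lower there, 48.2% of those calls, and 23 were higher. In the Lmx1a line, driven toward dopaminergic neurons, day 14 minus day 10 gave 539 genes higher (2.96%) and 233 lower (1.28%). Of the serotonergic rises 257 (22.8%) were also higher at day 14, 47.7% of those calls, and 7 lower; of the falls 105 (8.32%) were also lower, 45.1% of those calls, and 21 higher. Slc6a4 was called in the first of these comparisons, with 7.97 (adjusted p = 0.00099), and not in the second, with 2.25 (adjusted p = 0.265). Nefm was called in the second, with -2.72 (adjusted p = 2.5e-05), and not in the first, with -0.98.

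The day was also set against all 21 arrays. In 39 of the 1126 higher genes and 91 of the 1262 lower genes, all 15 arrays of day 10 or 14 lay beyond all 6 arrays of day 8. Over all genes tested, 0.319% had all 15 later arrays above those of day 8 and 0.693% below. The called genes were chosen by a difference between day 10 and day 8 arrays, which favours such a separation among them. All 6 arrays of day 8 were under RA, and most of the later arrays were under FGF8. Day and treatment were therefore not told apart by this split. For the other called genes at least 1 array of the later days overlapped those of day 8.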

How the data were processed

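RNA from purified post-mitotic neurons was read on 21 arrays in 7 groups of 3, of which 6 enter the comparison. The authors deposited log2 signals made with GCRMA, per the submitters' processing notes, with no version named there. No probe set had over 13 values above or over 13 below 0, and 79.2% held an exact 0, so the deposited values are centred per probe set. Signals over background are not known from such values, and the number of arrays limits the precision.

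Of 45101 probe sets, 64 were controls, 34945 carried 1 gene symbol in the platform annotation, 932 several and 9160 none given here. For the 9010 genes with more than 1 probe set the one with the largest SD was used, with no filter. limma 3.58.1 in R 4.3.3 fitted 7 group means (residual df 14, prior df 1.11), and calls needed an adjusted p under 0.05 over the 18193 genes and a difference of 1. The script was tested on simulated data with independent normal noise, of the same SD in all arrays for a given gene. In each of 3 runs 200 genes were changed, drawn from those with a residual SD above the median. Of genes changed by 1.5, 2, 3 and 4 log2 units it recovered 45.3%, 66.7%, 91.3% and 96%. The simulation held no array that stood apart and no bioC split, so the rates may differ in the real comparison.

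The members and the 43 lists (756 genes, 700 measured) were chosen with earlier results of these data known. Named genes are the 15 largest rises and 15 largest falls whose arrays do not overlap, all called members of the 5 lists on neuron identity, the driven factors and markers, and from each other list the 4 called members with the largest difference; uncalled members may be named. Called list members beyond those 4, Tnfsf13b, Dmd, C130021I20Rik's place beside Lmx1b, the receptor families and the germline and antigen presentation lists were chosen after their values were seen. Alternatives were a replicate block, each array left out, the 6 arrays alone, array weights, trended moderation, other probe set rules, other scaling, a range filter, a difference of 2 and the bioC sets; list counts under each were added after seeing the data.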

Additional observations from a re-analysis of the deposited data

How the results depend on the processing

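Against 1126 genes higher and 1262 lower, a required difference of 2 left 558 and 391, and the arrays of 1 bioC set alone, with 1 motor neuron array assumed to vary like the others, gave 456 and 456. Leaving out each array in turn gave 950 to 1109 higher and 967 to 1478 lower. The other alternatives gave 900 to 1450 higher and 923 to 1795 lower, within 1.5 times the counts given. The median difference of all genes moved between -0.058 and -0.006. Of 164 named genes, 126 kept their call under each alternative other than the difference of 2 and the bioC settings; 140 kept it with the bioC sets as a block and 90 within 1 set. 3 genes reversed with probe sets without a suffix for shared sequence: Aldh1l1 (-0.014), Gfra2 (-0.019) and Plagl1 (-0.041); the cause was not tested. Some further named genes had several probe sets, of which only 1 differed by 1 or more. Among these, another probe set differed by -0.018 for Hand2, -0.053 for Anxa1, 0.056 for Irs4, -0.066 for Tac1 and -0.024 for Ncam2. A replicate block gave 1129 higher and 1269 lower, 1099 and 1237 of them shared with the unblocked calls, and 161 of 164 named genes kept theirs; En2, Gfra1 and Klf4 did not. Same-numbered arrays deviated apart (r = -0.34, -0.13 and -0.192), so these values show no pairing by number. Deviations from a mean of 3 arrays constrain each other, so they cannot decide whether the samples were paired.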

Other observations

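Genes of germ cells and meiosis, gathered into a list after values had been seen, were set side by side in the RA groups. Of 44 measured of 45 listed, 13 were lower in the serotonergic arrays and none higher, with a median of -0.25, and 16 had all 3 motor neuron arrays above 1 against 3 with all 3 serotonergic and 5 with all 3 wild type RA arrays above 1. Over all 18193 genes these shares were 2.51%, 3.73% and 3.02%, and 6.94% were called lower. Ddx4, an RNA helicase of germ cells, read -0.02, -0.05 and -0.07 against 3.00, 4.33 and 3.76, a difference of -3.75 ± 0.26 (limma, adjusted p = 1.4e-07). The 12 arrays under FGF8 lay between -0.23 and 0.11 for Ddx4, and the wild type RA arrays read -0.06, 0.66 and 1.00. Tex12, a protein of the synaptonemal complex that joins chromosomes in meiosis, read 0.08, -0.04 and 0.51 against 4.47, 4.53 and 4.61, a difference of -4.35 ± 0.47; the wild type RA arrays read 0.91, 3.31 and 3.80. Syce1, of the same complex, read 2.43, 1.37 and 2.62 against 4.84, 4.90 and 4.81, with 2.51, 4.78 and 4.51 in the wild type RA arrays. Of the 13 genes, 4 were also called higher in the motor neuron arrays than in the wild type RA arrays, and Syce1 was not among them. Since the list was formed from these values, its counts are a description.

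Class I antigen presentation genes were listed in the same way, and 2 of 15 measured were lower, against 6.94% of all genes tested. The other 13 were not called, among them B2m and Tap1 with differences of -0.23 and -0.40. The median of the list was -0.024, so the count is no result about the list as a whole. H2-D1, a class I heavy chain, read -1.41, -1.09 and -1.45 against 1.81, 2.54 and 2.05, a difference of -3.45 ± 0.36, and H2-K1, another, read -0.21, -0.18 and 0.98 against 2.64, 2.37 and 2.11, a difference of -2.17 ± 0.32. The H2 genes resemble each other in sequence, so their probe sets may share signal.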
